A study of Gallus gallus with 3 samples.

Results

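Aminoacyl-tRNA synthetases, the enzymes that attach each amino acid to its transfer RNA, were followed in the jejunal mucosa of hens kept without heat stress. The members were chosen by gene symbol alone: every synthetase symbol of the deposited FPKM table, with the single-letter amino acid code before ARS and an optional suffix 1, 2, A or B, plus EPRS, AIMP1 and AIMP2. This gave 36 of the 15675 genes with values. They were 19 cytosolic enzymes or subunits, 15 mitochondrial enzymes and 2 complex scaffolds, AIMP1 and AIMP2. No other scaffold gene was taken in. GARS and KARS are known in vertebrates to serve both compartments from 1 gene, and they are described among the cytosolic enzymes. VARS and VARS2 for valine and WARS2 for mitochondrial tryptophan were not matched and are not analysed here.

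The study concerned Leuang Hang Kao breeder hens, described by its title as adapted to heat, and compared birds of 28 weeks held at 36 °C for 6 h with birds held at 23 °C, 25 per arm. In each arm, 12 hens gave jejunal mucosa RNA, which was mixed 4 birds at a time into 3 pools before sequencing. Values here belong to the 3 thermoneutral pools, labelled Control (TN) and called pools 1, 2 and 3, so no comparison between conditions was made. The SD given after each mean is the spread between pools of 4 hens, not between single birds, and n is 3 throughout.

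Cells keep separate sets of synthetases for translation in the cytosol and in mitochondria, and both sets are encoded in the nucleus. The enzymes fall into class I and class II, which have unrelated catalytic folds. In vertebrates, several cytosolic enzymes are held in a multisynthetase complex by scaffold proteins, while the others are free. Cytosolic synthetase genes are known as targets of the amino acid response, in which the kinase GCN2 senses uncharged transfer RNA and the transcription factor ATF4 acts on its targets.

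The labelled tissue was matched by its markers. Enterocyte markers summed to 61759, 54889 and 21676 FPKM in pools 1, 2 and 3, and all 8 of them were lowest in pool 3. FABP1 and APOA1 weighed most in that sum. FABP1 had the widest relative range of the 8, at 20545.5, 20224.9 and 4468.83 FPKM. ANPEP had the narrowest, at 727.55, 754.44 and 564.2 FPKM. Smooth muscle markers summed to 263, 533 and 935 FPKM, fibroblast markers to 196, 385 and 624, endothelial markers to 90.1, 125 and 213, and crypt and proliferating markers to 242, 371 and 436. Goblet markers summed to 1539, 1812 and 1859 FPKM, T and NK cell markers to 738, 790 and 901, and B and plasma cell markers to 1491, 2046 and 3622. AGR2 made up most of the goblet sum and JCHAIN most of the B and plasma cell sum, while the goblet markers MUC2, TFF2 and SPDEF were highest in pool 1. The 4 matched exocrine pancreas markers summed to 11.2, 8.44 and 15.3 FPKM, with CPA1 and CTRB2 listed at 0 in pool 2. None of these genes was at 0 in all pools. In a bulk sample, fewer cells of a type and less RNA per cell cannot be told apart. Pools correlated with Pearson's r of 0.974 to 0.987 across 11570 genes averaging 1 FPKM or more. Summed FPKM per pool ranged between 936084 and 948742.

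All 36 members were expressed in the mucosa, the cytosolic enzymes well above the mitochondrial ones. Level is given as the mean over pools of log2(FPKM + 1), and the median gene of a set is turned back into FPKM. The median cytosolic enzyme stood at 36.4 FPKM and the median mitochondrial enzyme at 11.6, against 12.5 for the median of the 11570 genes averaging 1 FPKM or more. All 36 members averaged 1 FPKM or more, as did 73.8% of all genes. An average of 10 FPKM or more was reached by 19 of 19 cytosolic and 9 of 15 mitochondrial enzymes, beside 41.9% of all genes. Together the members held 0.149% ± 0.00647 of the summed FPKM. The cytosolic enzymes made up 0.108% ± 0.00334, the mitochondrial enzymes 0.0208% ± 0.000926 and AIMP1 with AIMP2 0.0201% ± 0.00222.

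**Figure D1:**
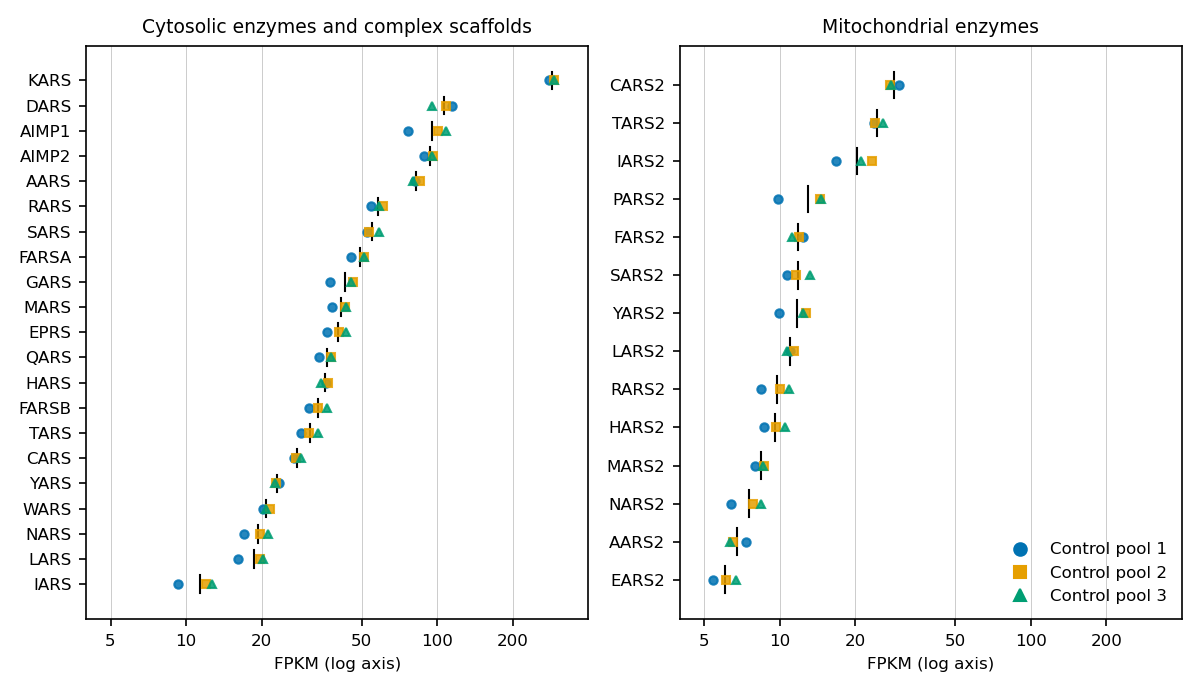
FPKM (log axis) of 35 of the 36 members in control pools 1, 2 and 3, with cytosolic enzymes and scaffolds on the left and mitochondrial enzymes on the right. Symbols are single pools and the black tick is their mean. KARS lies far to the right at 287 FPKM, and most mitochondrial enzymes lie near 10 FPKM.

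KARS, the lysyl-tRNA synthetase, was the most abundant member. It had 279.18, 291.57 and 291.03 FPKM in pools 1, 2 and 3, a mean of 287 ± 7.003, and ranked 405 among all genes. Every pool placed it above all other members, and it alone held 28.2% ± 0.238 of the summed FPKM of the 19 cytosolic enzymes. DARS, for aspartate, followed with 114.31, 108.39 and 95.23 FPKM, so that KARS exceeded it by 2.73 ± 0.309 times. AARS, which charges alanine and proofreads against serine, had 81.42, 85.24 and 80.45 FPKM. RARS, for arginine, had 54.60, 60.55 and 58.62 FPKM. SARS, which charges serine and also loads serine on the selenocysteine transfer RNA, had 52.61, 53.64 and 58.42 FPKM. The ranges of KARS, DARS, AARS and RARS over the pools did not overlap with one another, while those of RARS and SARS did.

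Below these, a middle group lay close together. GARS, for glycine, had 37.42, 46.19 and 45.54 FPKM, with pool 1 apart from the others. MARS, for the methionine of both initiation and elongation, averaged 41.5 ± 2.85 FPKM, and EPRS, a single protein that charges both glutamate and proline, 40.1 ± 3.49. QARS, for glutamine, averaged 36.5 ± 2.30 FPKM, HARS, for histidine, 35.8 ± 1.23, and TARS, for threonine, 31.0 ± 2.38. CARS, for cysteine, was at 27.6 ± 0.889 FPKM. YARS, for tyrosine, was at 22.9 ± 0.376, and WARS, for tryptophan, at 20.9 ± 0.632. The ranges over the pools of neighbours in the order did not overlap from TARS down through CARS and YARS to WARS. Those of neighbours from GARS down to TARS overlapped, FARSB among them, so the ranges alone do not resolve their order. Within pools, MARS exceeded EPRS, EPRS exceeded QARS and FARSB exceeded TARS every time. GARS and MARS, QARS and HARS, and HARS and FARSB changed order between pools. Over all 19 cytosolic enzymes or subunits, 10 of 18 neighbours overlapped.

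The lowest cytosolic enzymes were those for asparagine, leucine and isoleucine. NARS had 17.04, 19.74 and 21.14 FPKM. LARS, for leucine, which is also known as a leucine sensor upstream of mTORC1 in mammals, had 16.13, 19.67 and 20.21 FPKM. IARS, for isoleucine, was the lowest cytosolic enzyme of all, with 9.28, 12.01 and 12.72 FPKM. Each of the 3 was lowest in pool 1 and highest in pool 3. IARS also had the widest range among cytosolic enzymes, 0.42 on the log2(FPKM + 1) scale, before LARS at 0.31 and GARS at 0.30. Levels of the cytosolic enzymes thus spanned a KARS to IARS ratio of 25.7 ± 3.82, but 15 of 19 lay within 2 times the median gene in either direction.

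The median class I cytosolic enzyme was less abundant than the median class II enzyme, while the ranges of the classes overlapped. This comparison was added after seeing the data. EPRS, which charges proline as well as glutamate, was counted in class I only, and FARSA and FARSB were both counted in class II. The median of the 9 class I enzymes was 27.6 FPKM and that of the 10 class II genes 45.8 FPKM. The difference of medians, class I minus class II, was -0.60, -0.81 and -0.74 on the log2(FPKM + 1) scale in pools 1, 2 and 3, a mean of -0.71 ± 0.11. It was below 0 in all 3 pools. The exact two-sided sign-flip permutation test gave p = 0.25, the smallest that 3 pools allow, so no difference within pools could pass a threshold of 0.05. It covers the spread between pools of these same genes and cannot decide on a difference between the classes as such. RARS was the highest class I enzyme, at 57.9 FPKM, and class II held KARS, DARS and AARS above it. Class II means reached down to NARS, at 19.3 FPKM, and those of class I to IARS, at 11.3 FPKM. Among mitochondrial enzymes, the class I minus class II difference was -0.08 ± 0.06.

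**Figure D2:**
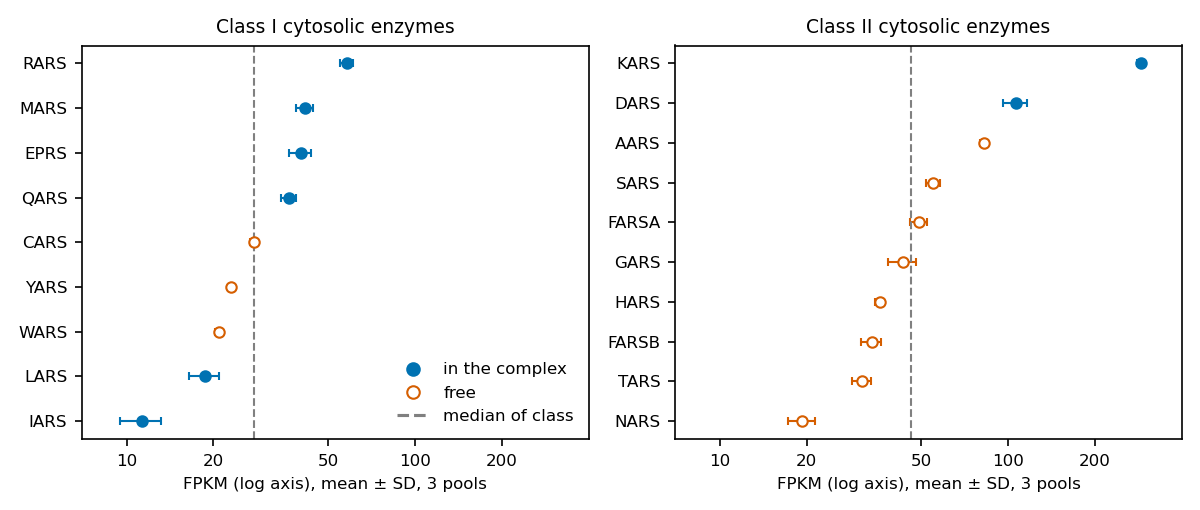
Mean FPKM (log axis) of the 19 cytosolic enzymes or subunits, with SD over the 3 control pools. Class I is on the left and class II on the right, filled symbols mark enzymes of the multisynthetase complex, open symbols free enzymes, and the dashed line is the median of the class. The complex enzymes lie at both ends, from IARS at 11.3 FPKM to KARS at 287 FPKM.

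Enzymes of the multisynthetase complex had a wide spread of levels. The 8 complex enzymes are EPRS, IARS, LARS, MARS, QARS, RARS, KARS and DARS, and they included both the most and the least abundant cytosolic enzyme. Their median stood at 40.7 FPKM, against 33.5 FPKM for the 11 free enzymes or subunits. The difference of medians was 0.27, 0.31 and 0.32 on the log2 scale in pools 1, 2 and 3, with a mean of 0.30 ± 0.03 and p = 0.25 in the exact sign-flip permutation test. That is small beside the differences among the complex enzymes themselves.

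Transcripts of the scaffolds AIMP1 and AIMP2 had higher mean FPKM than those of most enzymes of the complex. Protein was not measured, so FPKM give no ratio of scaffold to enzyme. AIMP1, which is also released as a cytokine in mammals, had 76.41, 100.54 and 108.78 FPKM, lowest in pool 1. AIMP2, which links the lysine enzyme to the complex, had 88.70, 96.37 and 95.63 FPKM. Both means, 95.2 ± 16.8 and 93.6 ± 4.23 FPKM, exceeded those of 17 of the 19 cytosolic enzymes or subunits, free ones included. The exceptions by mean, KARS and DARS, are both enzymes of the complex. Single pools differed: DARS, at 95.23 FPKM, was below both scaffolds in pool 3. In pool 1 the free enzyme AARS, at 81.42 FPKM, was above AIMP1. AIMP1 minus AIMP2 was -0.21 in pool 1, 0.06 in pool 2 and 0.18 in pool 3, so their order differed between pools. The mean difference was 0.01 ± 0.20, with p = 1 in the exact sign-flip permutation test.

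The transcripts of the 2 subunits of phenylalanyl-tRNA synthetase were not equal in FPKM. The cytosolic enzyme is built from equal numbers of alpha and beta subunits, but protein was not measured, so FPKM give no ratio of subunits. FARSA, the catalytic alpha subunit, had 45.20, 50.88 and 51.16 FPKM, and FARSB, the beta subunit, which carries the editing site, had 30.81, 33.63 and 36.29 FPKM. FARSA exceeded FARSB in all 3 pools, by 0.54 ± 0.05 on the log2 scale, or 1.46 ± 0.0517 times in FPKM. The exact sign-flip permutation test gave p = 0.25.

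Mitochondrial enzymes were lower than cytosolic ones by median and were led by those for cysteine, threonine and isoleucine. Their median of 11.6 FPKM was near the 12.5 of all genes averaging 1 FPKM or more. Of the 15, 13 lay within 2 times the median gene in either direction. CARS2, which in mammals also makes cysteine persulfides, had 29.85, 27.46 and 27.84 FPKM in pools 1, 2 and 3. TARS2 had 23.83, 23.95 and 25.73 FPKM, and IARS2 16.76, 23.34 and 21.10. IARS2 was lowest in pool 1. PARS2, for proline, had 9.85, 14.42 and 14.58 FPKM and the widest range of all 36 members, 0.52 on the log2 scale. Among mitochondrial enzymes IARS2 followed with a range of 0.45 and NARS2 with 0.36.

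The next mitochondrial enzymes averaged between 6 and 12 FPKM. FARS2, which is a single chain unlike its cytosolic counterpart, averaged 11.9 ± 0.604 FPKM, SARS2 11.9 ± 1.29, YARS2 11.7 ± 1.51 and LARS2 11.03 ± 0.375. RARS2 averaged 9.78 ± 1.25 FPKM, HARS2 9.62 ± 0.931 and MARS2 8.38 ± 0.368. The lowest were NARS2, at 6.38, 7.83 and 8.45 FPKM, AARS2, at 7.35, 6.54 and 6.33, and EARS2, for glutamate, at 5.40, 6.09 and 6.69. CARS2 exceeded EARS2 by 4.73 ± 0.710 times, a far narrower span than that of the cytosolic enzymes. Of 14 neighbours in this order, 11 had overlapping ranges over the pools. Overlap with the cytosolic set was partial: 8 of 15 mitochondrial enzymes had a higher mean than IARS, and none reached the cytosolic median.

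For most amino acids the cytosolic enzyme exceeded the mitochondrial one. There were 15 amino acids with both enzymes, EPRS being set against both EARS2 and PARS2, and FARSA standing for the cytosolic phenylalanine enzyme. In 13 of 15, the cytosolic gene was higher in every pool, and in 10 the mean difference was over 1 on the log2(FPKM + 1) scale. The median over the 15 differences was 1.78, 1.83 and 1.62 in pools 1, 2 and 3, with a mean of 1.74 ± 0.11. Each of these 13 differences gave p = 0.25 in the exact two-sided sign-flip permutation test, 0.268 after Benjamini-Hochberg adjustment over the 15 amino acids.

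**Figure D3:**
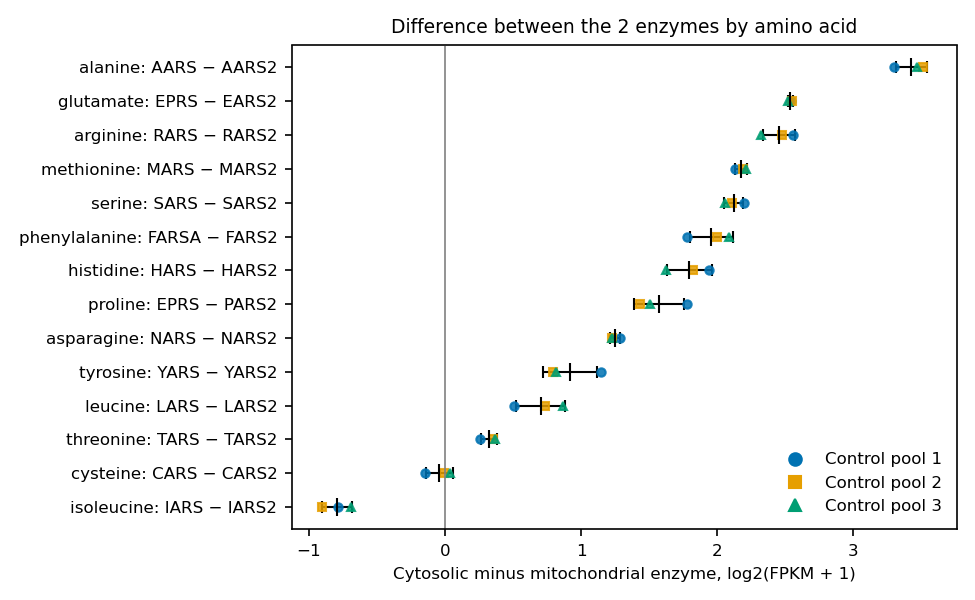
Difference between the cytosolic and the mitochondrial enzyme by amino acid, in log2(FPKM + 1), with 1 symbol per control pool and the mean ± SD over 3 pools in black. The 14 of 15 amino acids shown run down from alanine at 3.43 to isoleucine at -0.79, and only cysteine has pools on both sides of 0.

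The widest difference was that for alanine. AARS averaged 82.4 ± 2.53 FPKM and AARS2 6.74 ± 0.539, a log2 difference of 3.43 ± 0.11. For glutamate, EPRS minus EARS2 was 2.54 ± 0.02, and for arginine, RARS minus RARS2 was 2.46 ± 0.12. The glutamate difference had the smallest SD of the 15. Differences for methionine, serine, phenylalanine and histidine were 2.18 ± 0.04, 2.12 ± 0.07, 1.96 ± 0.16 and 1.80 ± 0.16. Those for proline, asparagine, tyrosine and leucine were 1.57 ± 0.18, 1.25 ± 0.03, 0.92 ± 0.20 and 0.70 ± 0.18.

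Threonine, cysteine and isoleucine had the lowest of the 15 differences, next below leucine in a graded series. TARS exceeded TARS2 by 0.33 ± 0.06, the smallest difference with the cytosolic gene higher in every pool. That pair leaves out TARSL2, a further threonine enzyme gene described at the end. For cysteine, CARS minus CARS2 was -0.15, -0.01 and 0.03 in pools 1, 2 and 3, a mean of -0.04 ± 0.10 that is smaller than its SD, with p = 0.75 in the exact sign-flip permutation test. For isoleucine the order was turned round. IARS averaged 11.3 ± 1.82 FPKM and IARS2 20.4 ± 3.35, and the difference was -0.79 ± 0.11, below 0 in every pool with p = 0.25 in the same exact test. IARS2 thus held 64.3% ± 1.82 of the summed FPKM of both isoleucine enzymes, while AARS2 held 7.57% ± 0.623 of the sum for alanine. Across the 15 amino acids, cytosolic and mitochondrial mean FPKM had a Spearman's rho of -0.19, given as a description of genes from the same 3 libraries, with EPRS entering 2 times.

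Members differed little between pools. The median SD between pools was 0.10 for cytosolic and 0.13 for mitochondrial enzymes on the log2(FPKM + 1) scale. It was 0.17 over the 11570 genes averaging 1 FPKM or more, and 0.15 over the 7717 genes whose mean lay between those of EARS2 and KARS. Without pool 1 it was 0.044 for cytosolic and 0.069 for mitochondrial enzymes, and 0.13 over the 11570 genes. Without pool 2 these values were 0.124, 0.187 and 0.192, so mitochondrial enzymes then varied nearly as much as all genes. Without pool 3 they were 0.087, 0.104 and 0.119. None of the 36 members had a highest and lowest pool more than 1 apart, where 7.06% of the 11570 genes and 5.11% of the 7717 genes did. With shares that low, few members would be expected in any set of this size. YARS was the steadiest member, at 23.36, 22.79 and 22.65 FPKM, and KARS, CARS, WARS, AARS, LARS2 and HARS also had an SD of at most 0.05.

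**Figure D4:**
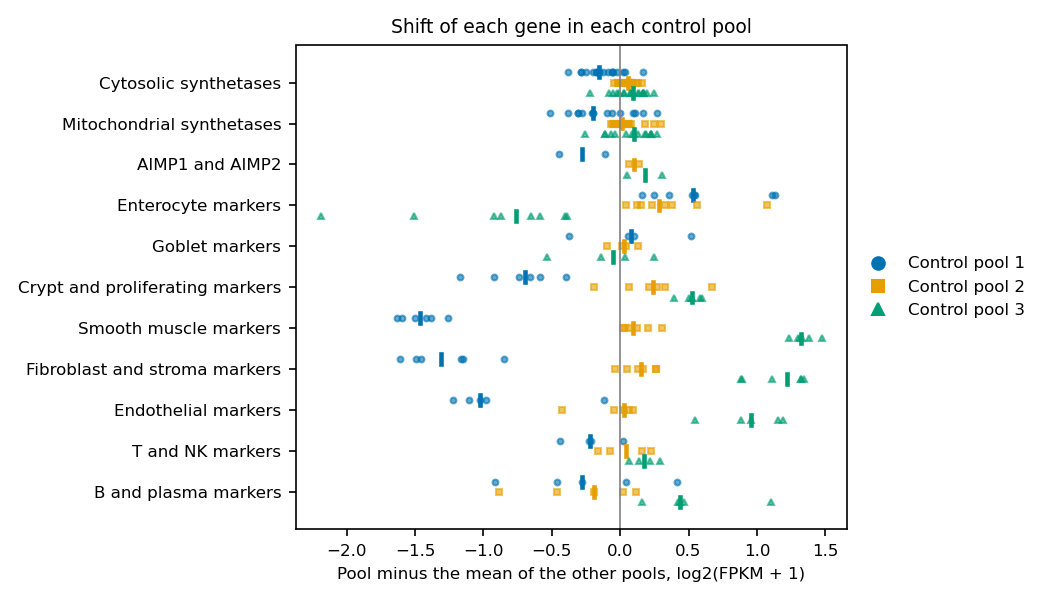
Value of each gene in a control pool minus the mean of the other pools, in log2(FPKM + 1). Small symbols are genes and short vertical lines are medians of a list, for synthetases and scaffolds in the top 3 rows and for cell type markers below. Synthetases stay within 0.52 of 0 in every pool, while smooth muscle markers have a median of -1.46 in pool 1 and 1.32 in pool 3.

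Most members were lowest in pool 1. As FPKM stand in the table, 27 of the 36 members were lowest in pool 1, beside 51.3% of all genes averaging 1 FPKM or more and 46.6% of the 7717 genes in the members' range of means. These were 15 of 19 cytosolic enzymes, 10 of 15 mitochondrial enzymes and both scaffolds. Pool 3 was the highest for 19 of 36 members, beside 52% of all genes, and the lowest for 8, beside 27.6%. Of the 7717 genes, 46.2% were highest and 32.9% lowest in pool 3. The median shift in a pool, its value minus the mean of the others, was -0.16, 0.06 and 0.09 for cytosolic enzymes in pools 1, 2 and 3. It was -0.20, 0.02 and 0.10 for mitochondrial enzymes, and -0.10, 0.01 and 0.10 for all genes averaging 1 FPKM or more. Without pool 1, pool 2 minus pool 3 had a median of -0.0078 for cytosolic and -0.015 for mitochondrial enzymes. With all 3 pools, the 36 members together had median shifts of -0.157, 0.058 and 0.092. Relative to the all-gene median they stood at -0.059, 0.051 and -0.011. The 7717 genes in the members' range had median shifts of -0.057, 0.014 and 0.051. In pool 3 the members thus lay below the all-gene median but above that of the 7717 genes.

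These pool differences depend on how the pools are scaled. When FPKM were divided by the median ratio of each pool over genes, 16 of 36 members were lowest in pool 1, beside 35.1% of all genes. Pool 3 was then the lowest for 18 members. The share of all genes lowest in pool 3 under that scaling was not computed, so the 18 cannot be read as a trait of the members. The members' median shifts were then -0.016, 0.058 and -0.048, with the all-gene median at 0.032, 0.0065 and -0.026. That scaling moved the all-gene median by over 0.1 in pools 1 and 3. Muscle and stromal markers, with median shifts of -1.46 and -1.31 in pool 1, and enterocyte markers, with -0.76 in pool 3, moved far more than the synthetases, and their part in the small synthetase shifts was not tested.

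In 5 of 36 members, pool 1 held the highest and pool 3 the lowest value as FPKM stand in the table. DARS, AARS2, FARS2 and YARS were among them. That share is no larger than the 16.8% of the 11570 genes with the same order, so it is no trait of the synthetases. The members with the largest shifts the other way in pool 1 were PARS2 at -0.51, AIMP1 at -0.45, IARS2 at -0.39 and IARS at -0.38.

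Mitochondria of vertebrates lack a glutaminyl-tRNA synthetase and make glutaminyl-tRNA from glutamyl-tRNA with an amidotransferase of 3 subunits. Of these, QRSL1 had 33.00, 30.35 and 31.29 FPKM, and GATC 27.99, 34.98 and 27.09. GATB was lower, at 7.84, 7.96 and 7.83 FPKM, or 0.25 ± 0.0124 of QRSL1, a value nearer to the 6.06 ± 0.646 FPKM of EARS2, which supplies the substrate. MTFMT, which formylates the initiator methionyl-tRNA of mitochondria, averaged 14.5 ± 2.83 FPKM beside 8.38 ± 0.368 for MARS2.

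Genes that correct or extend charging were well expressed. Of 9 listed genes 8 were matched, with a median level of 35.1 FPKM. AARSD1, which clears serine wrongly attached to the alanine transfer RNA, had 130.45, 117.31 and 100.88 FPKM, more than AARS itself in every pool. DTD1 and DTD2, which remove D-amino acids and other mischarged residues from transfer RNA, averaged 73.9 ± 3.29 and 62.1 ± 2.07 FPKM. PRORSD1, related to a bacterial editing domain, averaged 40.2 ± 2.89. The selenocysteine enzymes PSTK and SEPSECS, which convert the serine loaded by SARS, were lower, at 13.5 ± 1.82 and 12.3 ± 0.419 FPKM.

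Transfer RNA maturation genes covered a wide range. Of 17 listed genes 14 were matched, with a median level of 18.1 FPKM. HSD17B10 and TRMT10C, which belong to the mitochondrial RNase P, averaged 98.6 ± 2.44 and 34.3 ± 1.09 FPKM. SSB, which binds newly made transfer RNA, had 37.49, 52.30 and 57.39 FPKM, and RTCB, the ligase of spliced transfer RNA, averaged 48.7 ± 1.10. POP1, a subunit of nuclear RNase P, had the widest range, 0.70 on the log2 scale, with 2.19, 3.28 and 4.17 FPKM. Of the 14 genes, 9 were lowest in pool 1 and 4 in pool 3, beside 51.3% and 27.6% of all genes averaging 1 FPKM or more.

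**Figure D5:**
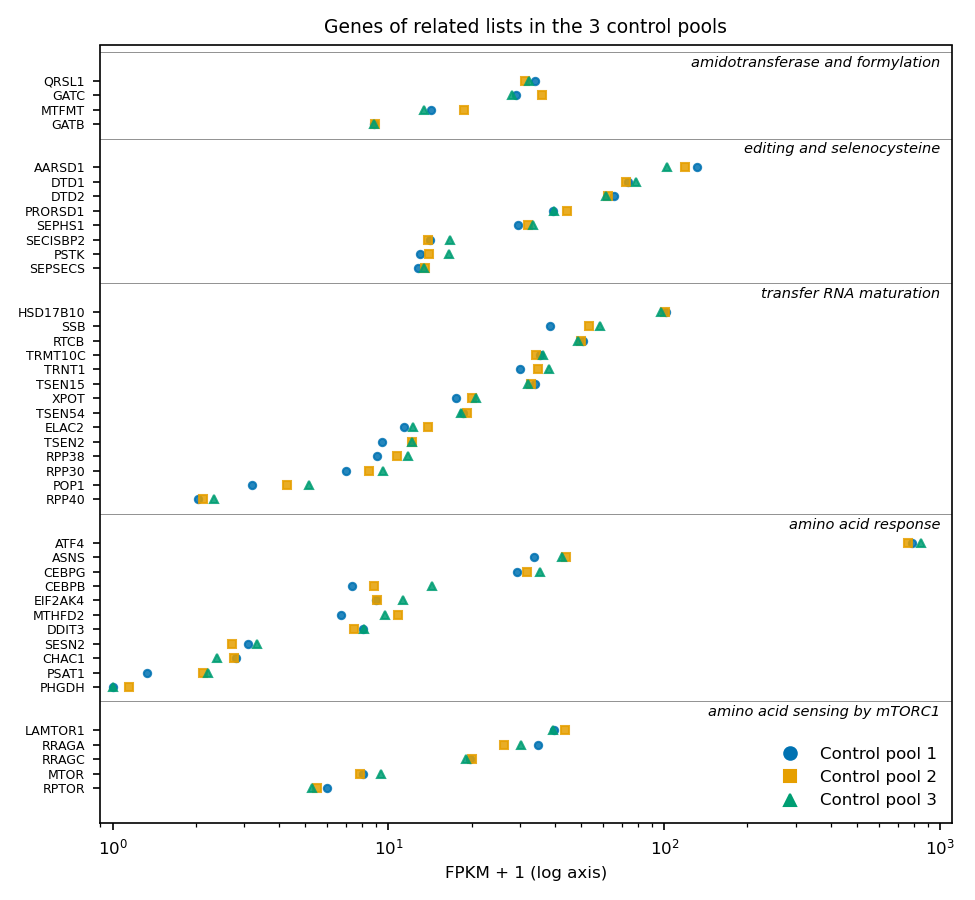
FPKM + 1 (log axis) in control pools 1, 2 and 3 for the matched genes of 5 lists related to transfer RNA charging. ATF4 is the most abundant of them, at 802 FPKM, and PHGDH lies at the left edge, listed at 0 in 2 of the 3 pools.

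In the amino acid response, the transcript of the transcription factor was abundant and those of several known targets were low. ATF4 protein was not measured, so its activity was not tested. ATF4 averaged 802 ± 45.5 FPKM. ASNS, which makes asparagine, had 32.57, 43.13 and 41.61 FPKM, and its level exceeded that of NARS, at 17.04, 19.74 and 21.14 FPKM, in every pool. CEBPG, a partner of ATF4, averaged 31.2 ± 3.01 FPKM. EIF2AK4, which encodes GCN2, averaged 8.83 ± 1.29 FPKM, and CEBPB had 6.40, 7.88 and 13.35, the widest range of the list at 0.96. CHAC1 and SESN2 stood at 1.65 ± 0.220 and 2.05 ± 0.314 FPKM. PSAT1 was at 0.33, 1.13 and 1.21 FPKM, and PHGDH, which begins serine synthesis, was listed at 0 in pools 1 and 3 and at 0.15 in pool 2. Of 14 listed genes 11 were matched, and the 9 averaging 1 FPKM or more had a median level of 8.78 FPKM.

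Genes through which mTORC1 senses amino acids were at moderate level. Of 7 listed genes 5 were matched, with a median level of 18.7 FPKM. LAMTOR1, which anchors the sensing complex at the lysosome, averaged 40.0 ± 2.23 FPKM, and the Rag GTPases RRAGA and RRAGC 29.4 ± 4.34 and 18.7 ± 0.487. The kinase MTOR averaged 7.45 ± 0.809 FPKM and RPTOR 4.59 ± 0.346.

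Some members overlap other genes, and the strand setting of the counting is not given in the sources used here. In the RefSeq annotation of GRCg7b, a later assembly than the GRCg6a of the processing notes, 16 of 36 members overlap another gene. Of these, 8 overlap a protein-coding gene. The shares of all genes with such overlaps were not computed, so these counts are no trait of the synthetases. Overlap lengths are those of whole gene spans. KARS overlaps TERF2IP, a telomere protein gene with 44.12, 46.66 and 51.94 FPKM, by 2999 bases. It also overlaps CHST4, a sulfotransferase gene with 14.13, 9.07 and 14.13 FPKM, by 4950 bases. KARS exceeded TERF2IP by 6.06 ± 0.397 times. SARS2 overlaps NFKBIB, at 72.8 ± 5.50 FPKM, by 184 bases, and MARS2 overlaps AIFM1, at 84.2 ± 1.43, by 106. RARS2 overlaps SLC35A1, at 23.1 ± 1.65 FPKM, by 6095 bases. NFKBIB, AIFM1 and SLC35A1 were each more abundant than the member. MARS overlaps 2 pseudogenes there. IARS2 contains the microRNA genes MIR194-1 and MIR215 and overlaps a long non-coding RNA gene by 1757 bases. CARS2 overlaps another such gene by 2565 bases and the microRNA gene MIR1736 by 99. No FPKM were matched to these non-coding genes. HARS and HARS2 are neighbours. The values of these members carry that uncertainty, to an extent that was not tested.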

How the data were processed

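Poly(A)-selected or rRNA-depleted libraries were made from RNA of 4 hens per pool, per the labels' protocols. Tools listed in the submitters' processing notes are HISAT2 2.0.1, HTSeq 0.6.1, cutadapt 1.9.1 and DESeq2 (no version), with build GRCg6a; roles, annotation and strand setting were not given in the sources used here. The authors deposited FPKM to 2 decimals, which were used as they stand. The authors also deposited estimated counts per pool. Across 15675 genes their log2 values correlated with log2(FPKM + 1) at r = 0.009, 0.006 and 0.005. AARS was at 81.42 FPKM in pool 1 and its count there was 0, so counts gave no expression value. Ratios of low FPKM between pools had no dominant step other than equality (fullest bin 13.0%), so depth is unknown and no counting interval is given. The table's 6 other columns of values fit no sample here and were left out.

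Values were analysed as log2(FPKM + 1), a scale on which low genes differ less than in FPKM. Genes averaging 1 FPKM or more formed the background. For differences within pools, the sign-flip permutation test was exact, two-sided and over 3 pools. Steps were tested on simulated data. The rule for members reads gene symbols only and no values, but members, lists and tests were chosen with earlier results of these data known. The class I and II difference and the all-gene spread with a pool left out were added after seeing the data. 1 mitochondrial enzyme is counted in every total and is not reported by itself here. Named were all other members and, in each related list, up to 4 genes with the highest mean, the 2 with the widest range, and other list members by role after their values were seen. Of 51 related symbols 42 were matched and of 50 marker symbols 48, through RefSeq synonyms where needed. Alternatives were another pseudocount, other minimum values, other scalings, means over members and each pool left out. Python 3.11.15, numpy 2.4.6, pandas 2.3.3 and matplotlib 3.10.9 were used.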

Additional observations from a re-analysis of the deposited data

How the results depend on the processing

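No paired analysis was possible because all 3 pools belong to 1 group and no replicate number links groups; differences between genes were taken within pools. Depth is taken as unknown, so precision rests on the spread of 3 pools, and no sign-flip test of 3 pools can pass 0.05. Of 374 recomputed values under 12 settings, 352 stayed within the spread between pools, kept the direction of a tested difference or stayed within 1.5 times, 21 moved further and 1 tested difference reversed. This was cysteine, which ranged from -0.078 to 0.013 with a pool left out and was above 0 without pool 1. Of values with no test, 4 shifts changed sign: both classes in pool 3 with median-ratio scaling, and both in pool 2 without pool 1. The count of 13 amino acids with the cytosolic enzyme higher in every pool held under every setting run. So did the absence of members with a range over 1. Part of this was fixed in advance, as was part of the 352. All members averaged over 5 FPKM, so other minimum values could not change a member result. Shares of summed FPKM do not depend on the pseudocount, the minimum, pool scaling or means over members. Pool scaling nearly cancels in differences within pools. The median cytosolic level, 5.23 on the log2 scale, was 5.34 as a mean over members and 5.20 to 5.28 with a pool left out. With median-ratio scaling, cytosolic shifts in pools 1 and 3 were -0.015 and -0.050, and mitochondrial ones -0.067 and -0.036. With a pool left out, cytosolic shifts lay between -0.16 and -0.12 in pool 1, -0.0078 and 0.12 in pool 2, and 0.0078 and 0.16 in pool 3, and mitochondrial ones between -0.25 and -0.12 in pool 1, -0.015 and 0.12 in pool 2, and 0.015 and 0.25 in pool 3. In pool 3 the largest came without pool 2 and the smallest without pool 1. The median SD between pools lay between 0.044 and 0.12 for cytosolic and between 0.069 and 0.19 for mitochondrial enzymes, lowest without pool 1. As a mean over members, the log2 levels of the lists were 4.26 for amidotransferase and formylation, 4.17 for transfer RNA maturation, 3.97 for the amino acid response and 4.03 for amino acid sensing. With a pseudocount of 0.1 maturation and sensing were at 4.18 and 4.23, and over genes of at least 5 FPKM at 4.66 and 4.61. The class I minus class II difference, with its alternatives chosen after seeing the data, ranged from -0.93 as a mean over members to -0.62 without KARS.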

Other observations

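TARSL2, a further threonine enzyme gene in vertebrates that the symbol rule does not take in, was chosen after its values were seen. It had 12.31, 13.21 and 14.27 FPKM in pools 1, 2 and 3, a mean of 13.3 ± 0.981 (SD, n = 3), against 31.0 ± 2.38 for TARS and 24.5 ± 1.06 for TARS2.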
